A study of Mus musculus with 16 samples.

Results

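The genes for collagen chains were described in the gastrocnemius muscle of mice with and without a tumor and with and without treadmill training. Members were all genes of the count table whose symbol is Col, a number, the letter a and a further number, which took 44 of the 35415 genes listed. They were grouped as 11 fibrillar chains, 6 basement membrane chains of type IV, and 27 other chains. All 44 had at least 1 read in some library, and 38 had enough counts to be tested: all 11 fibrillar chains, 5 of the 6 type IV chains and 22 of the 27 others. The 6 that were left out were Col4a6, Col6a4, Col9a1, Col9a3, Col10a1 and Col25a1, and none of these had more than 38 counts in any library. The rule reads gene symbols only.

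RNA sequencing of the gastrocnemius was available for 16 male wild-type BALB/c mice, bought at 8 weeks of age, with 4 mice in each of 4 groups that were drawn from 12 mice per group. The C group received saline and no training, and the E group received saline and trained. The T group was inoculated under the skin of the hind limb with CT26, a mouse colon carcinoma line, and did not train, and the TE group was inoculated and trained. Training was done on a treadmill over 4 weeks, on 6 days/week, in sessions of 60 min/day and with the belt set to 14 m/min, and the mice that did not train were placed on a treadmill that stood still. Anesthesia for the inoculation was common to all groups. Which leg the muscle was taken from is not given in the sources used here, and the groups are males of 1 strain with 1 tumor line. Library totals lay between 35628211 and 37635741 counts on genes. The skeletal muscle markers Acta1, Ckm, Myh4, Myh1, Mylpf and Tnnt3 summed to between 59690 and 67999 FPKM in every library. In other respects single libraries stood apart, and the 3 named first were left out of a further fit. TE mouse 4 had 108 FPKM of 6 lymph node markers, where the other 15 mice had 4.11 to 37.7 FPKM. T mouse 4 had 81.1 FPKM of 5 neutrophil markers, where the other mice had 1.22 to 33.6 FPKM, and T mouse 3 had 260.3 FPKM of 7 endothelial markers, where the other mice had 152 to 215 FPKM. Counts of called members are therefore also given from a fit of the other 13 libraries, chosen after the values had been seen. That fit has T mouse 1 and T mouse 2 as its only T mice. It keeps E mouse 2, which had the highest sums of tendon markers (88.8 FPKM) and adipocyte markers (232 FPKM) of all 16 mice. It also keeps C mouse 2, which had the highest sum of Schwann cell markers (285 FPKM). FPKM, the count of a gene scaled to its length and to the library total, is used here for levels because it can be compared between genes.

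Collagen chains wind around each other into rope-like helices that are secreted and built into the matrix around cells. Fibrillar collagens (types I, III and V, with types XI, XXIV and XXVII) form the fibrils that carry load in the endomysium, perimysium and tendon, whereas type IV chains form the sheet-like network of the basement membrane that wraps each myofiber and capillary. Type VI forms beaded filaments that join that basement membrane to the fibrils, FACIT collagens (types IX, XII, XIV, XVI, XIX, XX and XXII) sit on fibril surfaces, and the multiplexins (types XV and XVIII) sit at the outer face of basement membranes. In muscle most fibrillar collagen mRNA is made by fibroblasts and fibro-adipogenic progenitors rather than by myofibers.

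Sequence upstream of the start of 4 chains is shown because these genes differ in their behavior below: Col5a3 and Col6a2 were called between groups, Col4a5 is one of the minor type IV chains, and Col3a1 had the highest level of all members. Each run reads 5′ to 3′ on the strand of the gene and is the part of the RefSeq window of 250 bases before the start that lies outside every annotated exon. The RefSeq table was made on GRCm38.p6, and the runs were placed on GRCm39 by exact match. Capitals mark GGGCGG (the GC box) and CCAAT, searched on both strands, so that CCGCCC and ATTGG are marked as well.
Col5a3, chr9:20726419-20726613, minus strand: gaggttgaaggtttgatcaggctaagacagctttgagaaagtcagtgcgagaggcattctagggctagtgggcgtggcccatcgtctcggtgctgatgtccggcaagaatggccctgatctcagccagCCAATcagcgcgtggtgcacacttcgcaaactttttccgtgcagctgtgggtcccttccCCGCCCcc
Col6a2, chr10:76459550-76459714, minus strand: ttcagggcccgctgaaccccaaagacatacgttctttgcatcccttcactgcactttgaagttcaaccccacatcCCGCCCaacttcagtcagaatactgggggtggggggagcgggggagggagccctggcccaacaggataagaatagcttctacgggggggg
Col4a5, chrX:140258165-140258353, plus strand: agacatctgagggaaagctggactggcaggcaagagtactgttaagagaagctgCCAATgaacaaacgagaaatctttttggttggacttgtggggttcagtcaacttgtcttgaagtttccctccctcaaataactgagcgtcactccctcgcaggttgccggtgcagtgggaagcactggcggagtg
Col3a1, chr1:45350448-45350697, plus strand: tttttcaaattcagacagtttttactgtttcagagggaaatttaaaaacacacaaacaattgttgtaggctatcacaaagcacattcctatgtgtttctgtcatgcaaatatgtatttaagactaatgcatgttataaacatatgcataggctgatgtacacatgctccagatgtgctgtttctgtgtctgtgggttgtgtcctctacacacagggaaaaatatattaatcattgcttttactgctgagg

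The Col5a3 stretch of 195 bases held 1 GC box and 1 CCAAT, and 57.9% of its bases were G or C. The Col6a2 stretch held 1 GC box, the Col4a5 stretch held 1 CCAAT, and the Col3a1 stretch held neither and was 35.2% G or C. Col6a2 has a further window, which lies wholly within annotated exons and is not shown, and it held 3 GC boxes. Over the full windows of 250 bases, 21 of the 35 members with a window held a GC box (60%), whereas 10756 of all 32851 windows did (32.7%). CCAAT was found in 13 of these 35 members (37.1%) and in 33.8% of all windows. Some members, Col6a2 among them, have more than 1 window and count if any of these matched. The shares of members can therefore lie above shares of single windows for that reason alone. A match is a run of letters, not a binding site, and these letters say nothing about the factors that may act there.

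The leading chains were those of types III, IV, I and VI. Averaged over the 16 mice, Col3a1 (chromosome 1, GRCm39 positions 45350698 to 45395840) had 52.6 FPKM, Col4a1 had 40.5 FPKM, Col1a2 had 38.8 FPKM, Col4a2 had 29.3 FPKM, Col6a1 had 24.5 FPKM, Col1a1 had 23.4 FPKM and Col6a2 had 13.7 FPKM. These 7 genes held between 80.9% and 84.0% of the summed collagen FPKM in each library. At the other end the cartilage chains Col2a1, Col9a1 and Col10a1 averaged 0.0278, 0.0117 and 0.00815 FPKM, and of the 6 cartilage and bone markers Acan, Matn3, Ibsp, Bglap and Hapln1 had at most 12 counts in any library, whereas Sox9 had up to 103. All 44 members together took between 0.11% and 0.245% of the counts of a library.

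**Figure D1:**
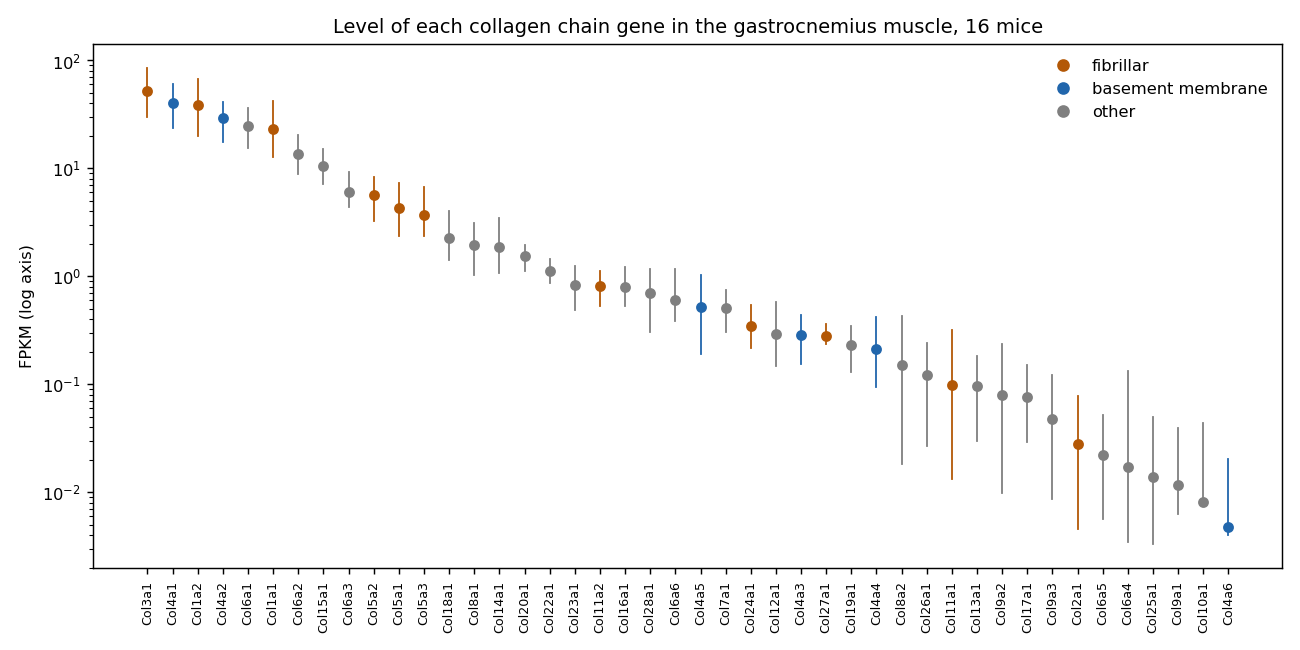
Level of each of the 44 collagen chain genes in FPKM on a log axis, in order of the mean over 16 mice (points), with lines from the lowest value above 0 to the highest. Orange marks fibrillar, blue basement membrane and grey other chains, and the order runs from Col3a1 at 52.6 FPKM down to Col4a6 at 0.00478 FPKM.

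The shares of the 3 classes in the collagen FPKM are given as a description, with no test. Fibrillar chains made up 44.4% to 48.9% of the collagen FPKM in the C group and 48.9% to 51.7% in the E group, and 45.2% to 47.8% in the TE group. The T group spread from 39.8% to 60.8%. T mouse 4 had the highest fibrillar share of all 16 mice, whereas T mouse 1 and T mouse 3 had the highest basement membrane shares, both near 35%. The chains of neither class, type VI and FACIT chains among them, made up 26.6% to 30.03% in the C group, 23.7% to 26.7% in the E group, 20.1% to 26.6% in the T group and 24.5% to 26.9% in the TE group. Every T mouse lay below every C mouse, by little at the border (26.58% and 26.60%). The type VI share was 18.08% to 20.9% in the C group, above every other mouse, at 16.2% to 18.07% in the E group, 12.4% to 17.3% in the T group and 15.3% to 17.1% in the TE group. The summed level of all members was 189 to 289 FPKM in the C group, 310 to 413 FPKM in the E group, 181 to 311 FPKM in the T group and 205 to 268 FPKM in the TE group. The E group lay above the C and TE groups in this sum without overlap, and T mouse 4 reached into its range.

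The first comparison asked what training did in mice without a tumor. Collagen chains of every class were higher in the E group than in the C group, but only Col5a3 passed the test across all genes. Of the 38 members tested, 34 were higher in the E group and 4 were lower, and their median log2 fold change was 0.51. Over all 14749 genes tested 7468 were higher, and the median was 0.0033. With an adjusted p below 0.05 by edgeR's quasi-likelihood test, 1 member rose and 0 fell, and 0.0881% of all genes were called higher and 0.00% lower. At an unadjusted p under 0.05, 21 members were higher and 0 were lower, where 8.51% of all genes were higher and 5.67% lower. In 17 members every E mouse lay above every C mouse in FPKM, compared with 6.28% of all genes tested, and in no member did every E mouse lie below. The fit of 13 libraries described above called 10 members higher, where it called 1.18% of all genes higher. In bulk muscle, more cells of a type and more RNA per cell cannot be told apart, and likewise fewer cells and less RNA per cell.

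Among fibrillar chains, all 11 were higher in the E group, around a median log2 fold change of 0.65. Col5a3, which encodes the alpha 3 chain of type V collagen and lies on chromosome 9 (20681337 to 20726418), had 2.61, 3.64, 3.34 and 2.91 FPKM in the 4 C mice and 4.81, 6.69, 5.79 and 5.90 FPKM in the 4 E mice. The lowest E mouse was above the highest C mouse. The group means were 3.13 ± 0.456 (SD, n = 4) and 5.80 ± 0.773 FPKM (SD, n = 4), and the log2 fold change was 0.86 (SE 0.141), a 1.81-fold rise (adjusted p = 0.0274 by edgeR's quasi-likelihood test). Leaving out C mouse 1, C mouse 3, C mouse 4, E mouse 2, E mouse 3 or E mouse 4 ended this call, and the log2 fold change stayed between 0.78 and 0.94 over all fits without 1 mouse.

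Col1a1 and Col1a2 encode the chains of type I collagen, the main protein of tendon and perimysium. Col1a1 (chromosome 11, 94827050 to 94843868) had 14.2, 24.1, 16.8 and 16.8 FPKM in the C group and 27.7, 37.4, 37.6 and 31.4 FPKM in the E group. These values did not overlap, and the log2 fold change of 0.87 (SE 0.252) had an adjusted p of 0.159 by edgeR. Col1a2 had 28.4, 42.9, 31.4 and 31.4 FPKM in the C group and 47.2, 67.5, 59.1 and 51.2 FPKM in the E group. Its log2 fold change was 0.71 (SE 0.208; adjusted p = 0.160). Col3a1, the type III chain of loose connective tissue, had 36.1, 59.1, 43.0 and 44.9 FPKM in the C group and 60.9, 85.5, 80.7 and 66.2 FPKM in the E group, which again did not overlap. Its log2 fold change of 0.65 (SE 0.215) did not pass the test either (adjusted p = 0.211). Col5a1 and Col5a2, which set fibril diameter with type I, had log2 fold changes of 0.51 and 0.59 and adjusted p of 0.241 and 0.219 by edgeR. Col11a1, a minor fibrillar chain, had the largest value of the class at 1.25 (SE 0.482), on at most 93 counts per library. The smallest were Col27a1 at 0.05 and Col11a2.

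**Figure D2:**
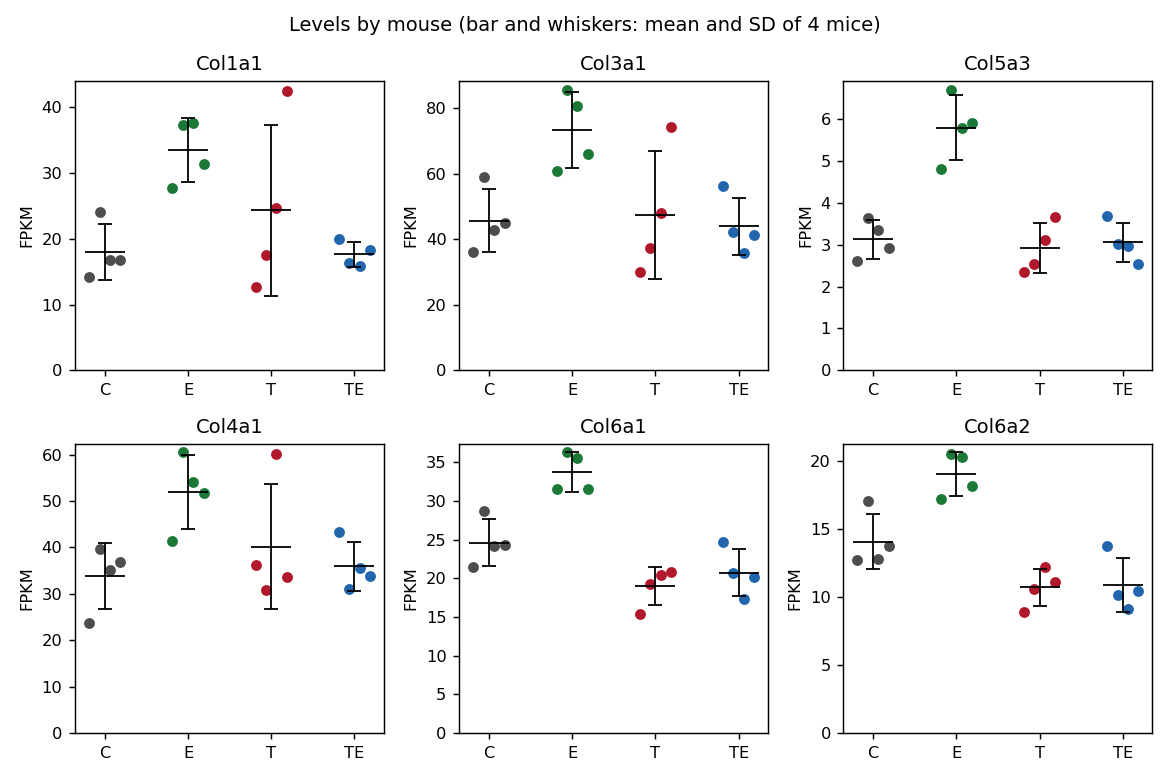
Level in FPKM of 6 collagen chains in each mouse (points) by group, with the mean and SD of 4 mice. In all 6 genes the E mice lie above the C mice without overlap, and in Col1a1, Col3a1 and Col4a1 1 of the T mice reaches the range of the E group.

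Among type IV chains, all 5 tested were higher in the E group, around a median of 0.47 on the log2 scale. Col4a1 and Col4a2 encode the chains of the main basement membrane network of muscle and vessels. Col4a1 had 23.6, 39.7, 35.2 and 37.0 FPKM in the C group and 41.4, 60.5, 54.0 and 51.7 FPKM in the E group. Its lowest E value was just above its highest C value, and the log2 fold change was 0.58 (SE 0.183; adjusted p = 0.186 by edgeR). Col4a2 had a log2 fold change of 0.50 (SE 0.166; adjusted p = 0.213), and Col4a3 one of 0.07.

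The type VI chains were higher in the E group as well. Col6a1 (chromosome 10, 76543440 to 76562283) had 21.4, 28.6, 24.1 and 24.2 FPKM in the C group and 31.5, 36.3, 35.6 and 31.6 FPKM in the E group. The groups did not overlap, and the log2 fold change was 0.42 (SE 0.101; adjusted p = 0.109 by edgeR). Col6a2, also on chromosome 10, and Col6a3 had values of 0.40 (SE 0.114; adjusted p = 0.154) and 0.53 (SE 0.144; adjusted p = 0.146). Col6a6, a further type VI chain, had 0.549, 0.389, 0.548 and 0.487 FPKM in the C group and 0.786, 0.778, 1.17 and 0.903 FPKM in the E group. At 0.84 (SE 0.178) its log2 fold change came closest to the threshold after Col5a3 (adjusted p = 0.0827). The FACIT chain Col20a1 followed with 0.53 (SE 0.116; adjusted p = 0.0867). Col12a1, a FACIT chain of tendon and fascia, had 0.149 to 0.250 FPKM in the C group and 0.332 to 0.571 FPKM in the E group, with a log2 fold change of 1.04 (SE 0.295; adjusted p = 0.153). The multiplexin chain Col15a1, of the outer basement membrane of muscle and capillaries, had 0.34 (SE 0.116; adjusted p = 0.217). The 4 members lower in the E group (Col17a1, Col26a1, Col19a1 and Col23a1) had log2 fold changes between -0.60 and -0.10.

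The number of members called between E and C depended on the model. DESeq2 called 8 members higher (Col12a1, Col20a1, Col4a1, Col5a3, Col6a1, Col6a2, Col6a3 and Col6a6), where it called 1.54% of the genes it gave an adjusted p higher. EdgeR on the E and C libraries alone called 10, among them Col1a1, Col1a2 and Col3a1, and 1.08% of all genes in that direction. Limma on log2(FPKM + 0.1) called 0 members, beside 6 of all 14749 genes in either direction.

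Tendon markers moved with the E group. The 8 tendon markers summed to 26.7 to 31.6 FPKM in the C group and 55.1 to 88.8 FPKM in the E group, with 7 of 8 higher and Tnmd, Fmod and Chad called. The call of each of these 3 was lost when any 1 C mouse was left out. The fibroblast and fibro-adipogenic progenitor markers summed to 388 to 539 FPKM in the C group and 567 to 710 FPKM in the E group, with 7 of 7 higher and 0 called by edgeR (5 at an unadjusted p under 0.05). The pericyte and smooth muscle markers summed to 293 to 337 FPKM in the C group and 409 to 433 FPKM in the E group, with 7 of 7 higher and 0 called by edgeR (6 at an unadjusted p under 0.05). The adipocyte markers summed to 12.9 to 73.3 FPKM in the C group and 42.6 to 232 FPKM in the E group, with 6 of 6 higher and 0 called by edgeR (4 at an unadjusted p under 0.05). The endothelial markers summed to 153 to 191 FPKM in the C group and 203 to 206 FPKM in the E group, without overlap, with 5 of 7 higher and 0 called by edgeR (1 at an unadjusted p under 0.05). The part of these cells in the collagen values was not tested.

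The second comparison asked the same of training in mice with a tumor. No collagen chain was called between TE and T by edgeR, and none by DESeq2 or any other model run, with 0.00% of all genes called by edgeR. At an unadjusted p under 0.05, 0 members were higher and 2 lower, beside 2.87% and 3.01% of all genes. Of 38 members 19 were higher in TE and 19 were lower, and their median log2 fold change was -0.01 (0.19 with 13 libraries). Col5a3 had 2.34, 2.54, 3.12 and 3.66 FPKM in the T mice and 3.69, 3.02, 2.98 and 2.54 FPKM in the TE mice. The ranges were almost the same, and the log2 fold change was 0.06. Col1a1 had 12.7, 17.5, 24.7 and 42.5 FPKM in the T mice and 20.04, 16.3, 15.8 and 18.3 FPKM in the TE mice. The TE mice lay inside the range of the T mice, with a log2 fold change of -0.48 (SE 0.251; adjusted p = 0.852 by edgeR), which was -0.06 without T mouse 4 and 0.19 in the fit of 13 libraries. All 6 lymph node markers were higher in TE (6 at an unadjusted p under 0.05), with sums of 4.11 to 10.9 FPKM in the T mice and 4.67 to 108 FPKM in the TE mice. All 5 neutrophil markers were lower (2 at that p), with sums of 14.2 to 81.1 FPKM and 19.5 to 33.6 FPKM, as were the 5 macrophage markers (0). None was called by edgeR, and their part in the collagen values was not tested.

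The members with the smallest p-values were lower in the TE group. Col14a1, a FACIT chain that binds decorin, had 1.36, 1.39, 3.44 and 2.59 FPKM in the T mice and 1.34, 1.32, 1.45 and 1.60 FPKM in the TE mice. Its log2 fold change was -0.63 (SE 0.253; adjusted p = 0.812 by edgeR). The values for Col12a1 and Col11a1 were -0.72 (SE 0.298) and -1.05 (SE 0.506), with adjusted p of 0.828 and 0.847. In each of these T mouse 3 or T mouse 4 was the highest of its group. Without T mouse 3 the value of Col14a1 was -0.345, without T mouse 4 that of Col12a1 was -0.24, and in the fit of 13 libraries both were -0.03.

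The C and E mice are other animals than the T and TE mice, so the 2 training comparisons can be set side by side. Of the 38 members 18 were higher with training in both, 16 were higher in mice without a tumor and lower in mice with one, 1 was the reverse and 3 were lower in both. The interaction term, which tests whether the training difference depended on the tumor, was below 0 for 33 of 38 members with a median of -0.51 on the log2 scale, beside 7404 of 14749 genes in all. No member was called by edgeR (0.00% of all genes), and 19 were below 0 and 0 above at an unadjusted p under 0.05, where 5.51% of all genes were below 0 and 3.70% above. DESeq2 called 1 member, Col12a1, and 0.0792% of its genes with an adjusted p, below 0. The smallest adjusted p by edgeR was 0.420, shared by 4 members, which were Col12a1 at -1.76 (SE 0.419), Col5a3 at -0.80, Col1a1 at -1.34 (SE 0.355) and Col14a1 at -1.25 (SE 0.357). In the fit of 13 libraries these 4 values were -1.06, -0.47, -0.68 and -0.65, with 0.987 as the adjusted p of each, and the median over members was -0.24. Markers of other cells moved with the interaction too, with 0 called by edgeR. Of the 8 tendon markers 7 were below 0, all 7 at an unadjusted p under 0.05, as were 6 of 7 fibroblast markers (3 at that p), 7 of 7 pericyte markers (4) and 6 of 6 adipocyte markers (0). All 5 neutrophil markers (1) and all 5 macrophage markers (0) were below 0 too, whereas the 6 lymph node markers were all above 0 (5). The part of these cells in the collagen values was not tested.

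**Figure D3:**
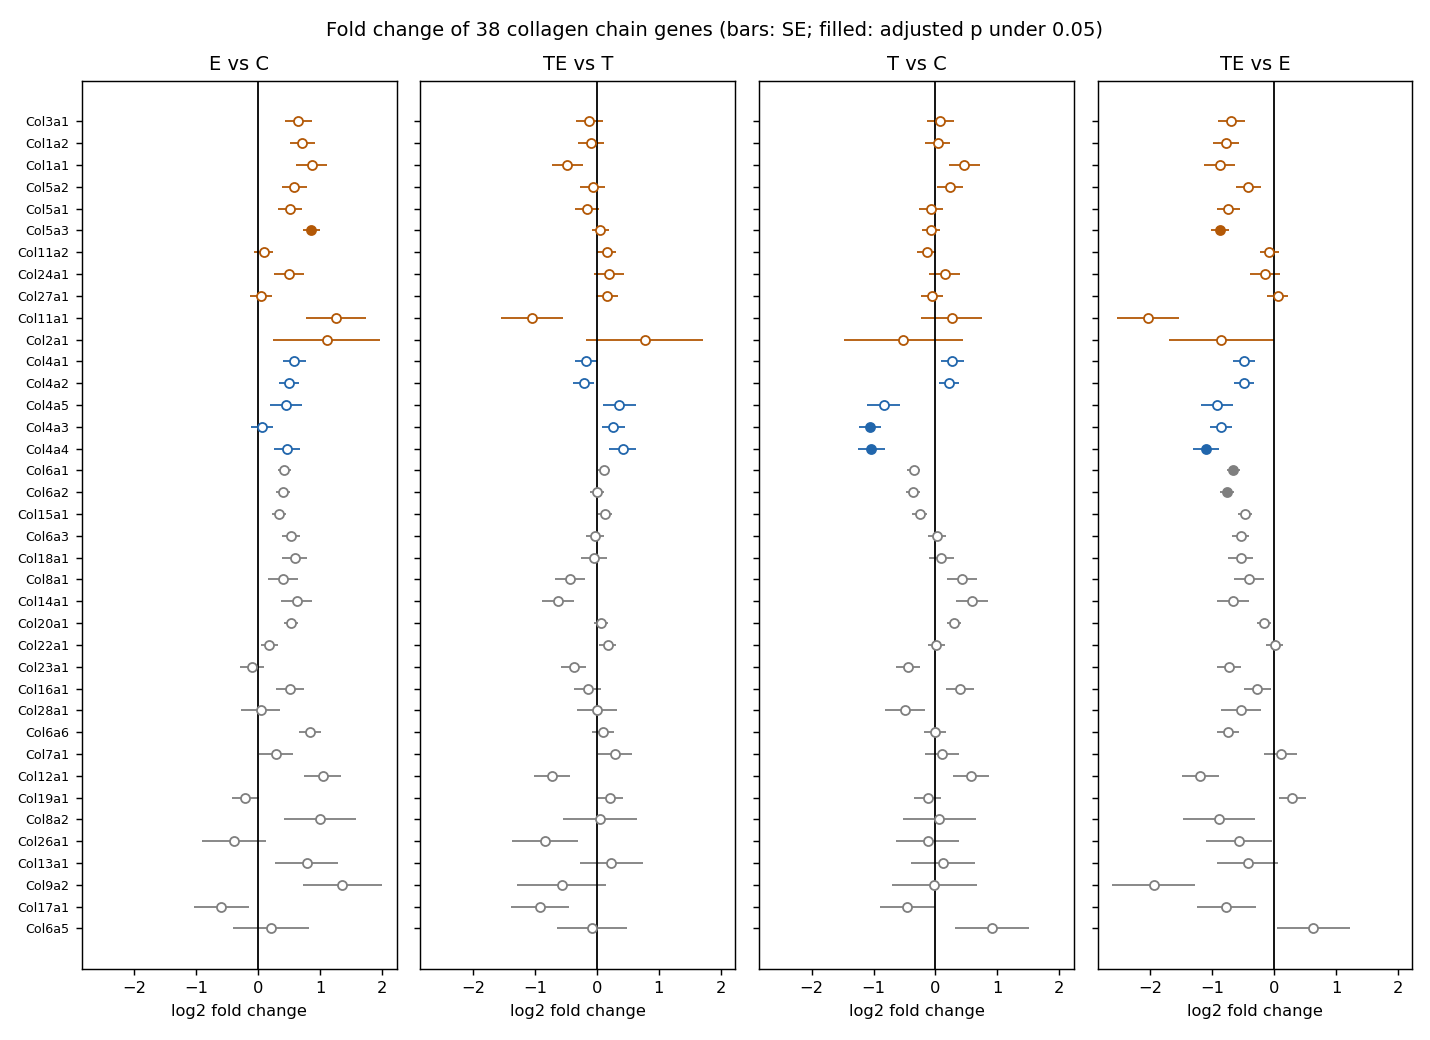
Log2 fold change (points) with SE (bars) of the 38 tested collagen chains in 4 comparisons, from fibrillar (orange) over basement membrane (blue) to other chains (grey), each class in order of level. Filled points have an adjusted p below 0.05 by edgeR; E vs C lies mostly right of 0, TE vs T on both sides, and TE vs E mostly left of 0.

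The third comparison asked what the tumor did in mice that did not train. Col4a3 and Col4a4, minor chains of type IV, fell, and no fibrillar chain was called (0 at an unadjusted p under 0.05 by edgeR and 0 by DESeq2). Of the 38 members 20 were higher in T and 18 were lower, with 0.02 as the median of their log2 fold changes (-0.29 with 13 libraries). By edgeR 0 members rose and 2 fell, where 0.515% of all genes were called higher and 0.163% lower. In the fit of 13 libraries, which has T mouse 1 and T mouse 2 as its only T mice, 0 rose and 0 fell. Col4a3 and Col4a4 had log2 fold changes of -0.89 and -0.92 in that fit. DESeq2 called 3 members lower, which were these and Col6a1, beside 0.938% of its genes with an adjusted p. At an unadjusted p under 0.05, 2 members were higher and 7 lower, beside 8.23% and 5.96% of all genes. In 4 members (Col4a3, Col4a4, Col6a1 and Col6a2) every T mouse lay below every C mouse, compared with 4.21% of all genes, and in 1 (Col6a5) every T mouse lay above, compared with 2.64%. Col6a5 had only 2 to 18 counts per library.

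Col4a3, Col4a4 and Col4a5 encode the chains of a second type IV network, best known from the filtration barrier of the kidney. Col4a3 and Col4a4 lie head to head on chromosome 1 (82564642 to 82699780 on the plus strand and 82426144 to 82564800 on the minus strand), with 159 bases shared at their starts. Col4a3 had 0.275, 0.349, 0.438 and 0.412 FPKM in the C mice and 0.177, 0.206, 0.154 and 0.155 FPKM in the T mice. The groups did not overlap, and the gene fell by 1.06 on the log2 scale (SE 0.183; adjusted p = 0.0134 by edgeR). Col4a4 had 0.190, 0.228, 0.241 and 0.293 FPKM in the C mice and 0.147, 0.0948, 0.103 and 0.108 FPKM in the T mice. It fell by 1.04 (SE 0.218; adjusted p = 0.0377), and both changes were more than 2-fold. Col4a5, on chromosome X, had 0.505, 0.631, 0.558 and 0.597 FPKM in the C mice and 0.192, 0.544, 0.309 and 0.216 FPKM in the T mice. T mouse 2 lay inside the C range, and the log2 fold change of -0.84 (SE 0.269) did not pass the test (adjusted p = 0.163). Without T mouse 2 it was -1.24 and was called (adjusted p = 0.0114 by edgeR).

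These 3 chains were measured on few reads, with 37 to 243 counts per library. The call of Col4a3 was lost without C mouse 3 or C mouse 4, in the fit of the C and T libraries alone and in the fit of 13 libraries, with adjusted p between 2.86e-05 and 0.146 over 26 alternatives. The call of Col4a4 was lost in 13 of 26 alternatives. Reads from the shared bases of Col4a3 and Col4a4 cannot be told apart unless strand was used in counting, which is not given in the sources used here.

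The major type IV chains were not called. Col4a1 had 36.1, 30.8, 60.2 and 33.6 FPKM in the T mice, of which only T mouse 3 lay outside the C range, and its log2 fold change was 0.27 (SE 0.183; adjusted p = 0.533 by edgeR), or 0.03 without T mouse 3. Per 100 units of Col4a1 FPKM, Col4a3 stood at 0.879 to 1.25 in the C mice and 0.257 to 0.669 in the T mice. Col4a4 per 100 units of Col4a2 stood at 0.756 to 1.07 in the C mice and 0.248 to 0.551 in the T mice. Both ratios separated the C and T groups. The E mice stood at 0.642 to 0.984 and 0.654 to 1.09, and the TE mice at 0.442 to 0.764 and 0.456 to 0.700. The TE mice lay below every C mouse but overlapped the E mice in both ratios, and the E and T mice overlapped in the first. Col4a5 per 100 units of Col4a1 overlapped between the C mice at 1.59 to 2.14 and the T mice at 0.513 to 1.77.

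**Figure D4:**
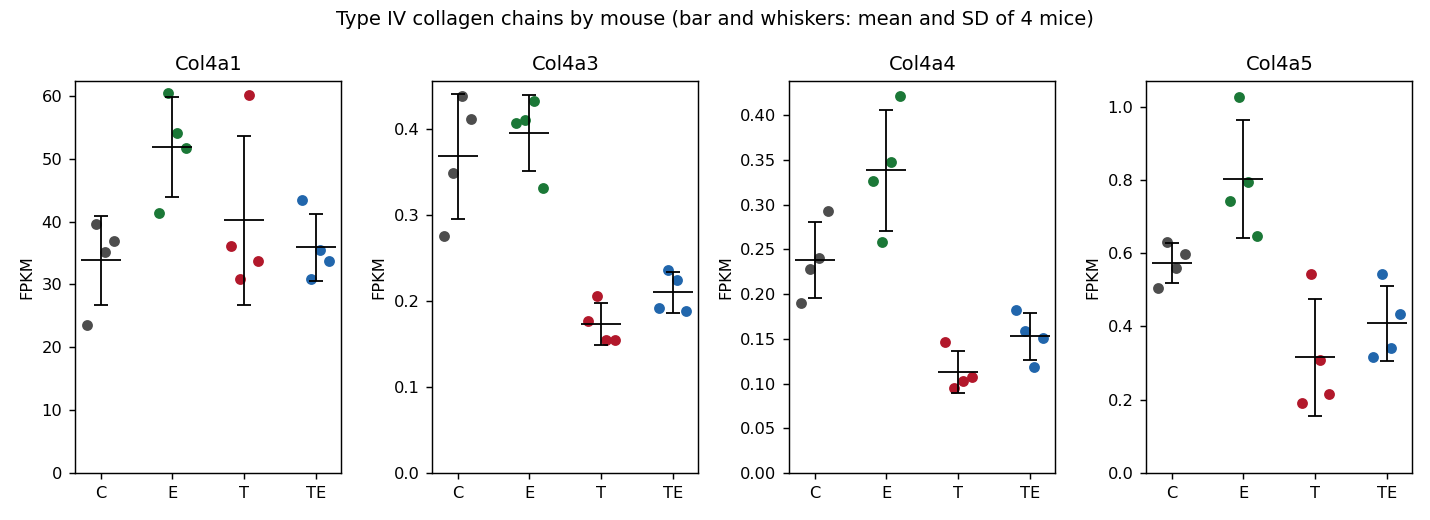
Level in FPKM of 4 type IV collagen chains in each mouse (points) by group, with the mean and SD of 4 mice. For Col4a3 and Col4a4 every T and TE mouse lies below every C and E mouse, which does not hold for Col4a1.

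Type VI and type I chains were not called between T and C by edgeR, whereas DESeq2 called Col6a1 lower. Col6a1 had 15.4, 19.2, 20.4 and 20.8 FPKM in the T mice, all below the lowest C mouse at 21.4 FPKM, and its log2 fold change was -0.35 (SE 0.101; adjusted p = 0.116 by edgeR). Col6a2 had 8.91, 10.6, 12.2 and 11.1 FPKM, all below the lowest C mouse at 12.7 FPKM, with -0.37 (SE 0.115; adjusted p = 0.148). Col1a1 had a log2 fold change of 0.46 (SE 0.251; adjusted p = 0.430) and Col1a2 of 0.03. Without T mouse 4 these values were 0.05 and -0.27, and in the fit of 13 libraries they were -0.20 and -0.50. The ratio of Col1a1 to Col1a2 in FPKM was 0.501 to 0.562 in the C mice and 0.632 to 0.803 in the T mice, without overlap. It was 0.553 to 0.637 in the E mice, which overlapped both, and 0.525 to 0.580 in the TE mice.

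Markers of other cells moved between T and C as well. Of the 6 Schwann cell markers 6 were lower in the T group and 3 had an unadjusted p under 0.05 (0 called by edgeR), with sums of 118 to 285 FPKM in the C mice and 83.6 to 179 FPKM in the T mice. Of the 7 endothelial markers 3 were higher in the T group and 4 lower, with 2 each way at an unadjusted p under 0.05. Only the receptor gene Kdr was called, lower at -0.68 (SE 0.149; adjusted p = 0.0457 by edgeR), and this call was lost in 18 of 27 alternatives. The 7 endothelial markers summed to 153 to 191 FPKM in the C mice and 153 to 260 FPKM in the T mice. All 5 neutrophil markers rose, from sums of 1.22 to 7.17 FPKM to sums of 14.2 to 81.1 FPKM, and none was called without C mouse 4 or in the fit of 13 libraries. The 6 lymph node markers were all lower, with 5 at an unadjusted p under 0.05 (0 called by edgeR), and summed to 8.71 to 35.01 FPKM in the C mice and 4.11 to 10.9 FPKM in the T mice, with Glycam1 listed at 0 in all 4 T mice. The 5 macrophage markers were all higher, with 2 at an unadjusted p under 0.05 (0 called by edgeR), and summed to 12.3 to 23.4 FPKM in the C mice and 17.0 to 33.4 FPKM in the T mice. Their part in the collagen values was not tested.

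The fourth comparison asked what the tumor did in mice that trained. Most collagen chains were lower in the TE group than in the E group, and 4 fell: Col6a2, Col6a1, Col5a3 and Col4a4. This comparison shares the E mice with that of E and C, so the high E values enter both. Of the 38 members 33 were lower and 5 were higher, around a median log2 fold change of -0.61. By edgeR 0.115% of all genes were called lower, as many as were called higher. At an unadjusted p under 0.05, 21 were lower and 0 higher, where 5.53% of all genes were lower and 3.70% higher. In 16 members every TE mouse lay below every E mouse, compared with 5.56% of all genes.

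Col6a2 had 17.2, 20.5, 20.3 and 18.1 FPKM in the E mice and 13.7, 10.1, 9.10 and 10.5 FPKM in the TE mice. It fell by 0.76 on the log2 scale (SE 0.115; adjusted p = 0.00699 by edgeR). Col6a1 had 24.6, 20.6, 17.3 and 20.2 FPKM in the TE mice, below all E mice, and fell by 0.66 (SE 0.101; adjusted p = 0.00699). Both kept their call in all 27 alternatives. Col5a3 fell by 0.88 (SE 0.141; adjusted p = 0.00913) and also kept its call in all 27. Its TE mean was 3.06 ± 0.474 FPKM (SD, n = 4), near the C mean of 3.13 ± 0.456 FPKM.

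Col4a4 had 0.326, 0.258, 0.348 and 0.422 FPKM in the E mice and 0.183, 0.159, 0.119 and 0.151 FPKM in the TE mice. It fell by 1.10 (SE 0.214; adjusted p = 0.0407), and 13 of 26 alternatives did not call it. Col4a3 had a log2 fold change of -0.86 (SE 0.180; adjusted p = 0.0639), Col1a1 of -0.88 (SE 0.252; adjusted p = 0.2002), Col3a1 of -0.69 (SE 0.215; adjusted p = 0.267) and Col4a1 of -0.48 (SE 0.183; adjusted p = 0.403). The larger values of Col11a1 at -2.04 (SE 0.503) and Col12a1 at -1.19 (SE 0.297) had adjusted p of 0.122 and 0.123 by edgeR. DESeq2 called 13 members lower (0.811% of its genes with an adjusted p), the fit of the E and TE libraries alone called 8 (0.528% of all genes) and the fit of 13 libraries called 7 (0.256%). Of the 8 tendon markers 7 were lower in the TE group, with Tnmd, Fmod and Kera called and sums of 26.3 to 38.5 FPKM. The call of Tnmd was lost in 1 of 27 alternatives (without TE mouse 2), that of Fmod in 12 and that of Kera in 14. The fibroblast and fibro-adipogenic progenitor markers (7 of 7) and the pericyte and smooth muscle markers (7 of 7) were lower too, each with 5 at an unadjusted p under 0.05 and 0 called by edgeR, at sums of 425 to 443 FPKM and 319 to 379 FPKM. The 6 Schwann cell markers were all lower (2 at an unadjusted p under 0.05), at sums of 91.1 to 232 FPKM in the E mice and 84.9 to 120 FPKM in the TE mice, as were the 6 adipocyte markers (0), at 42.6 to 232 FPKM and 40.1 to 96.2 FPKM. Of the 7 endothelial markers 4 were lower (3 at an unadjusted p under 0.05), at sums of 203 to 206 FPKM and 152 to 215 FPKM. None of these was called by edgeR. The 5 neutrophil markers were higher, with 4 at an unadjusted p under 0.05 and 0 called, at sums of 1.27 to 8.04 FPKM in the E mice and 19.5 to 33.6 FPKM in the TE mice. What these cells add to the collagen values was not tested.

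The T and C mice are other animals than the TE and E mice, which allows the 2 tumor comparisons to be read beside each other. Of the 38 members 16 were lower with the tumor in both, 17 were higher in mice that did not train and lower in mice that did, 3 were higher in both and 2 were the reverse. Over all 16 mice, the tumor main effect is the mean of the 2 tumor differences. By edgeR 8 members fell and 0 rose (12 fell in the fit of 13 libraries, with 1.05% of all genes), where 0.624% of all genes were called lower and 0.739% higher, and 30 of 38 were below 0 with a median of -0.31. At an unadjusted p under 0.05, 14 members were below 0 and 0 above, beside 6.81% and 7.41% of all genes. Markers of other cells moved with the tumor main effect. Of the 8 tendon markers 7 were lower (Tnmd and Kera called), of the 7 fibroblast markers 6 (Gsn called), of the 7 pericyte markers 7 (Cspg4 called), of the 7 endothelial markers 4 (Kdr and Emcn called) and of the 6 Schwann cell markers 6 (0 called by edgeR, 4 at an unadjusted p under 0.05), whereas all 5 neutrophil markers rose and all 5 macrophage markers were higher (0 called, 3 at an unadjusted p under 0.05). The calls of Kera and Gsn were lost in 13 and 14 of 26 alternatives and that of Tnmd in 7, that of Emcn was lost with 13 libraries, and those of Kdr and Cspg4 were kept in all 26. Their share in the collagen values was not tested.

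The 8 were 3 type IV chains, Col6a1, Col6a2, Col5a3, Col15a1 and Col23a1. Col4a3 fell by 0.96 (SE 0.128; adjusted p = 0.000968 by edgeR), Col4a4 by 1.07 (SE 0.153; adjusted p = 0.00135) and Col4a5 by 0.88 (SE 0.188; adjusted p = 0.0241). Col6a1 fell by 0.50 (SE 0.0716) and Col6a2 by 0.57 (SE 0.0810), each with an adjusted p of 0.00135. Col4a3, Col4a4, Col6a1 and Col6a2 kept their call in all 25 or 26 alternatives that tested them. Col5a3 fell by 0.47 (SE 0.1001; adjusted p = 0.0227), although its values in the C and T mice were alike.

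Col15a1 had 8.02, 11.5, 11.1 and 11.03 FPKM in the C mice, 12.3, 13.6, 15.0 and 13.1 FPKM in the E mice, 7.55, 8.04, 10.1 and 8.58 FPKM in the T mice and 9.32, 10.8, 7.24 and 10.4 FPKM in the TE mice. The C and T values overlapped and the E and TE values did not. Col15a1 fell by 0.36 (SE 0.0823; adjusted p = 0.0354 by edgeR). Col23a1, a transmembrane collagen, had 0.737 to 1.26 FPKM in the C mice and 0.507 to 0.922 FPKM in the T mice, which overlapped, and 0.781 to 1.25 FPKM in the E mice and 0.484 to 0.697 FPKM in the TE mice, which did not. It fell by 0.59 (SE 0.138; adjusted p = 0.0422). The calls of Col15a1 and Col23a1 were each lost in 13 alternatives, that of Col4a5 in 5 of 25 (without C mouse 2, C mouse 4, E mouse 2 or TE mouse 3, and with 13 libraries), and that of Col5a3 without C mouse 2. Over the training main effect, 33 of 38 members were above 0 with a median of 0.20, and 0 were called by edgeR (9 above and 1 below 0 at an unadjusted p under 0.05), where 0.00678% of all genes were called higher and 0.00% lower and, without the adjustment, 5.95% and 4.80%. The member with the smallest p was Col5a3 at 0.46 (SE 0.1001; adjusted p = 0.147), and DESeq2 called Col5a3 and Col6a1 higher (0.477% of its genes with an adjusted p). The fit of 13 libraries called 4 members higher (0.611% of all genes). Above 0 beside them, with 0 called by edgeR, were 7 of 8 tendon markers (5 at an unadjusted p under 0.05), 7 of 7 fibroblast markers (3), 7 of 7 pericyte markers (3), 6 of 7 endothelial markers (1), 6 of 6 adipocyte markers (0) and 6 of 6 lymph node markers (6). What they add to the collagen values was not tested.

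Chains that form 1 molecule varied together over the 16 mice. Pearson's r of log2 CPM (counts scaled to the library total) was 0.98 between Col4a1 and Col4a2, 0.98 between Col6a1 and Col6a2, 0.95 between Col1a1 and Col1a2 and 0.85 between Col5a1 and Col5a2, and it was 0.95 between Col1a1 and Col3a1. Spearman's rho of these pairs was 0.97, 0.96, 0.94, 0.80 and 0.93. The permutation p adjusted over the 6 pairs was 1.5e-05 for r in 4 of these, the smallest that 100000 resamples can give after adjustment, and 6e-05 for Col5a1 with Col5a2. Without the 2 mice farthest from the median these r were 0.98, 0.96, 0.95, 0.83 and 0.94, and within groups they were 0.98, 0.93, 0.98, 0.89 and 0.96. Col4a1 and Col4a2 share 356 bases at their starts on chromosome 8, so that reads there may be counted for either.

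The one pair taken across the fibrillar and the basement membrane class, Col1a1 with Col4a1, had an r of 0.61 and a rho of 0.57 (permutation p of 0.0130 and 0.0232, which the adjustment over 6 pairs left as they were). Its r within groups was 0.28, without E mouse 2 and T mouse 4 it was 0.74, and with 1 mouse left out it ran from 0.52 to 0.80, so that the value depended on single mice. Whether it differed from that of the other pairs was not tested. T mouse 3 had the highest Col4a1 of its group at 60.2 FPKM beside 24.7 FPKM of Col1a1, whereas T mouse 4 had 33.6 FPKM of Col4a1 beside 42.5 FPKM of Col1a1.

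**Figure D5:**
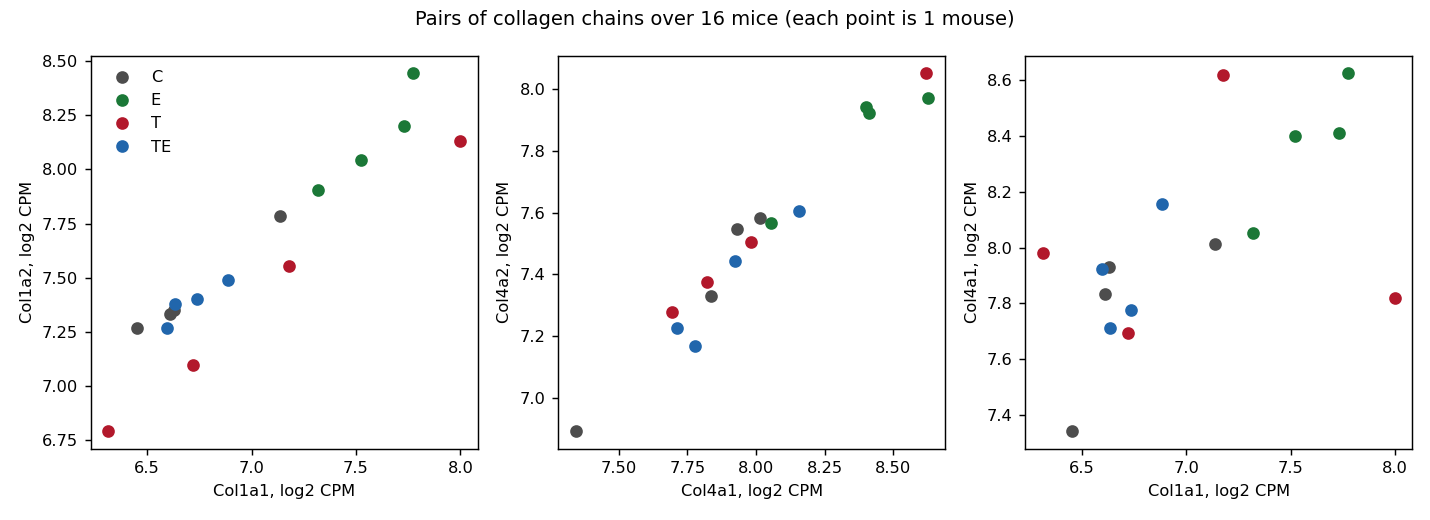
Log2 CPM of 3 pairs of collagen chains, with each of the 16 mice as a point colored by group. Col1a1 with Col1a2 and Col4a1 with Col4a2 lie close to a line (r of 0.95 and 0.98), and Col1a1 with Col4a1 is spread more widely (r of 0.61), with a T mouse at each side.

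Partners of the collagens were read from the same fit. Among 13 tested fibril partners, which bind or bridge fibrils, 13 were above their C level in the E group, around a median of 0.55 on the log2 scale, 11 of them at an unadjusted p under 0.05 (8.51% of all genes), and 1 rose, Fmod (fibromodulin, which regulates fibril assembly), at 1.99 (SE 0.313; adjusted p = 0.0206 by edgeR). In TE compared with E 13 of 13 were lower, 9 at an unadjusted p under 0.05 (5.53% of all genes), and Fmod fell by 1.62 (SE 0.308; adjusted p = 0.0371). These calls of Fmod were lost in 7 and 12 of 27 alternatives. All 14 basement membrane partners, such as laminins and nidogens, were higher in E than in C with a median of 0.24, and 0 were called (5 at an unadjusted p under 0.05). Of 9 collagen receptors 9 were higher and 0 called (4 at an unadjusted p under 0.05). The smallest p was that of Ddr2, the discoidin receptor for fibrillar collagen, at 0.59 (SE 0.119; adjusted p = 0.0586), and 7 of 27 alternatives called it higher, DESeq2 and the fit of the E and C libraries alone among them. Over the tumor main effect, Nid2 (nidogen 2, which links laminin to type IV collagen) fell by 0.53 (SE 0.0986; adjusted p = 0.0103), and Ogn (osteoglycin, a small proteoglycan of the matrix) fell by 0.52 (SE 0.0914; adjusted p = 0.00672).

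Genes that make and process collagen were also read. Of 30 tested, 20 were higher and 10 lower in E than in C, with a median log2 fold change of 0.14 and 0 called by edgeR (9 higher and 1 lower at an unadjusted p under 0.05). Serpinh1, the collagen chaperone Hsp47, had 0.09 (SE 0.176), and P4ha1, a prolyl hydroxylase subunit, had 0.13 (SE 0.146). Loxl2, a lysyl oxidase that cross-links collagen, had 0.73 (SE 0.171; adjusted p = 0.101), and 6 of 27 alternatives called it higher. Of 17 genes of the TGF-beta pathway with Ccn2, 12 were higher and 0 called (2 at an unadjusted p under 0.05), and Tgfb1 itself had 0.11 (SE 0.150; adjusted p = 0.780). In T compared with C, 0 genes of these 5 lists were called by edgeR. Nid2 came closest at -0.62 (SE 0.140; adjusted p = 0.0529), and 8 of 27 alternatives called it lower, with DESeq2, the replicate block and the fit with no filter on low counts among them. Tnc (tenascin C) followed at 2.69 (SE 0.738; adjusted p = 0.104), and was called with no filter and without T mouse 2. Without T mouse 4 the value of Tnc was 0.57.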

How the data were processed

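RNA of the gastrocnemius of 16 separate mice was sequenced, 4 per group, with the groups taken from the sample labels. Per the paper's methods and the submitters' processing notes, the authors trimmed reads with fastp 0.20.1, aligned them to GRCm39 with HISAT2 2.1.0 and deposited raw counts per gene from HTSeq 0.11.2. The FPKM values deposited by the authors equal the count per kilobase of gene, scaled to the library total. The release of the annotation and whether counting used strand are not given in the sources used here, so reads of overlapping genes cannot be assigned with certainty. The methods name version V5 of the library kit and the labels version V6. The authors called differential expression with DESeq2. The tables held 0 columns of other samples. Without molecular identifiers, PCR copies were counted as reads.

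Library totals ran from 35628211 to 37635741, so that 3 counts are at most 0.0842 CPM. Libraries of 1 group differed by a chi-square of 12.7 to 61.3 per degree of freedom, and none was a copy of another. Counts were fitted with edgeR 4.0.16 in R 4.3.3 (filterByExpr, TMM factors from 0.9469 to 1.05, glmQLFit and glmQLFTest, 1 coefficient per group). Of 35415 genes, 23837 had a count and 14749 were tested. The p-values are two-sided, were adjusted by the Benjamini-Hochberg method over all genes tested in each of 7 contrasts, and a gene was called at an adjusted p under 0.05. The fit was also run on simulated counts with the same spread for all genes and no outlying library. Such a run cannot show how calls hold where single mice stand apart. Correlations used log2 CPM (prior count 2) and two-sided permutation tests with 100000 resamples.

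Named were the leading chains (Col1a1, Col1a2, Col3a1, Col4a1, Col4a2, Col5a3, Col6a1, Col6a2, Col6a3 and Col15a1), every member called in a comparison and the 3 members with the smallest p in each. Further genes with a fold change or call in the text, markers included, were named and put through the same alternatives after their values were seen. Members and lists were chosen with earlier results of these data known. Alternatives were DESeq2 1.42.0, its size factors in edgeR, a robust fit, no filter on low counts, the replicate number as a block, only the groups compared, limma 3.58.1 with voom and sample weights or on log2(FPKM + 1) and log2(FPKM + 0.1), genes with a mean FPKM of at least 1, each library left out in turn and, chosen after seeing the data, 13 libraries. Python 3.11.15 with matplotlib 3.10.9 made the figures.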

Additional observations from a re-analysis of the deposited data

Results flagged for a closer look

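In 4 of 100 sets of a named chain and a group, 1 mouse lay far from the other 3 in FPKM by Dixon's ratio of gap to range, past its 95% critical value, where chance gives about 1 set in 20, or 5 sets. In the E group, mouse 2 had the highest Col11a1 at 0.3164 FPKM, and the others had 0.1307 to 0.1498 FPKM. In the C group, mouse 1 had the lowest Col15a1 at 8.016 FPKM, and the others had 11.03 to 11.53 FPKM. Col4a2 stood out in both the E and the T group. E mouse 1 was lowest at 30.28 FPKM beside 38.56 to 39.43 FPKM, and T mouse 3 was highest at 41.53 FPKM beside 23.69 to 26.63 FPKM.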

How the results depend on the processing

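Of 92 log2 fold changes named for a gene, 85 kept their direction in every alternative run, and none of the other 7 was called. Col1a2 in T vs C (0.03) was -0.0709 with limma-voom, -0.0629 on log2(FPKM + 1) with or without the filter on mean FPKM, -0.0669 on log2(FPKM + 0.1), -0.50 with 13 libraries and -0.27 to 0.21 without 1 library. With 13 libraries Col1a1 was -0.20 in T vs C (0.46) and 0.19 in TE vs T (-0.48). Without 1 library Col5a3 in TE vs T was -0.0382 to 0.19, and in E vs C Col27a1 was -0.0345 to 0.13, Col4a3 -0.03635 to 0.15 and Serpinh1 -0.0169 to 0.30. Between T and C, where edgeR called 2 members, DESeq2 called 3 and the replicate block, limma-voom with sample weights and limma on log2(FPKM + 1) or log2(FPKM + 0.1) called 1 each, and 0 were called with only the groups compared and with 13 libraries. Among genes with a mean FPKM of at least 1 it was 0 as well, since that filter removes Col4a3 and Col4a4. Leaving out 1 library gave 0 to 2, with 0 without C mouse 3 or C mouse 4 and 1 without C mouse 2, E mouse 3, T mouse 3 or T mouse 4. Between E and C the count of 1 became 8 with DESeq2, 4 with limma-voom, 0 on log2(FPKM + 0.1), 10 with only the groups compared and 10 with 13 libraries. Without 1 library it was 0 to 3, with 2 without T mouse 2 and 3 without T mouse 3 or T mouse 4, while all genes called went from 13 to 34, 127 and 30 in these 3 fits and to 141 with limma-voom. Between TE and E the count of 4 became 13 with DESeq2, 8 with only the groups compared and 7 with 13 libraries, and was 3 to 8 without 1 library (8 without T mouse 4). The tumor main effect gave 8 members, 4 among genes with a mean FPKM of at least 1 (Col4a3, Col4a4, Col4a5 and Col23a1 were not in that fit), and 4 to 9 without 1 library, with 4 without C mouse 2 and 5 without C mouse 4, E mouse 2 or TE mouse 3. The training main effect gave 0, 2 with DESeq2, 4 with 13 libraries, and 0 to 1 without 1 library (1 without T mouse 3, where all genes called went from 1 to 104). The interaction gave 0, and 1 with DESeq2. The causes of the other changes were not tested. Over all genes, DESeq2 called 423 between T and C, where edgeR called 100, and 257 between E and C (13), 179 between TE and E (34), 479 for the tumor (201) and 97 for training (1). Without 1 library the count over all genes was 16 (without C mouse 4) to 255 (without T mouse 2) between T and C, 18 to 69 between TE and E and 130 to 281 for the tumor. With the replicate block Col4a4 lost its call in T vs C and in TE vs E, Kdr in T vs C, Fmod and Kera in TE vs E and Tnmd for the tumor, and none of the other genes with a call given here lost it. Over all genes the block called 77 in T vs C, 25 in E vs C, 28 in TE vs E and 176 for the tumor. The numbers do not pair the mice: 24 correlations of same-numbered libraries ran from -0.241 to 0.214, 5 were over 0.1, and 5 of 16 libraries were closest to their own number. Col4a3, Col4a4 and Col4a5 rest on 37 to 243 counts per library.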
